A study of Arabidopsis thaliana with 14 samples.

Results

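The chalazal endosperm of the mature green Arabidopsis seed was compared, array by array, with the embryo, the micropylar and peripheral endosperm, the chalazal seed coat and the rest of the seed coat. Transcripts were taken as high in chalazal endosperm where their mean there was at least 2-fold above the highest mean of the other 5 compartments, and 457 of 22746 probe sets (2.01%) met this rule. Among them were 5 genes for MADS-domain transcription factors (AGL42, AGL71, AGL72, AGL79 and AGL80), the glucosinolate enzyme CYP79A2 and the glucosinolate transporter GTR1, 4 glycosyltransferases, the subtilase SBT4.13, the tetraspanin TET11 and the mitotic kinases AUR1, AUR3 and Haspin. A single gene is listed for 276 of the 457, several genes for 11 and none for 170, and 34 of the named genes have a symbol other than their locus number. The members were chosen by these same values, so their levels and differences are given as a description, and limma's calls of single comparisons say only whether a difference exceeded the spread between arrays.

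The endosperm arises from the fertilised central cell and nourishes the embryo. It is divided into a micropylar part around the root end of the embryo, a peripheral part along the seed wall, and a chalazal part at the opposite pole, where the vascular strand of the mother plant ends. The chalazal part forms a multinucleate cyst early in seed growth, lies directly against the chalazal seed coat, and is generally regarded as a place where maternal nutrients enter the filial tissues.

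All samples came from unmutated plants of the accession Ws-0, 38 to 46 days old and grown in continuous light, at the stage when the green embryo fills the seed. Each compartment was cut by laser from paraffin sections of siliques 1.8 to 2.0 cm long and was measured on 2 Affymetrix ATH1 arrays, which carry short probes for most Arabidopsis genes, after amplification of 5 to 6 ng of RNA. Each pair of arrays is labelled as biological replicates, with no word on the plants behind them, so p-values measure only the spread between these samples. Of the 14 arrays, the 12 of the 6 compartments entered the comparison, and 2 arrays of whole seeds were set beside the result. Values are array intensities, and those under 25 were raised to 25 before the log2 step. Where an array of the next-highest compartment was under this floor, the fold is a lower limit.

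The arrays had the same scaled mean, their medians ran from 133.8 to 202.6, and the precision of every value is limited by 2 arrays a group. The replicates of chalazal endosperm correlated at 0.880 (Pearson's r of log2 values across all probe sets, which are not independent). With the peripheral and micropylar endosperm arrays the range was 0.757 to 0.823, and with the embryo and both seed coat parts it was 0.499 to 0.674. Of 6 tested embryo markers, 6 were called lower in chalazal endosperm than in embryo, as were 8.23% of all tested probe sets. Their summed intensity, that of the 6 markers, was 982 and 1069 in chalazal endosperm against 64919 and 99889 in embryo. STOMAGEN, SNZ and PPDK were under the floor on both chalazal endosperm arrays. The summed intensity of 6 tested seed coat markers was 4008 and 4062 in chalazal endosperm, against 3111 to 3503 in the other endosperm parts and 9010 to 28526 in the 2 seed coat parts, and BAN was under the floor on both chalazal endosperm arrays. The summed intensity of 6 tested endosperm markers, 36044 and 49037 in chalazal endosperm, overlapped that of embryo (36862 and 45238) and of the peripheral part (43734 and 45800). None of the vascular markers listed is on a probe set named by the tables used.

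The 3 markers given for the compartment, all of which met the 2-fold rule, were high in chalazal endosperm. SBT4.13, a subtilisin-like serine protease, read 8695 and 5042 in chalazal endosperm, 1727 and 5704 in chalazal seed coat, and no more than 16.8 on the other 8 compartment arrays. The stronger chalazal seed coat array lay between the 2 chalazal endosperm arrays, so the groups overlapped. CYP79A2, the cytochrome P450 that opens benzylglucosinolate synthesis from phenylalanine, read 3949 and 1767 in chalazal endosperm, 659 and 958 in chalazal seed coat and at most 63.2 elsewhere. Here both chalazal endosperm arrays lay above all others. AGL79, a MADS-domain factor, read 1179 and 572 against 156 and 202 in chalazal seed coat and at most 143 elsewhere. Each of the 3 was called higher than embryo, micropylar endosperm, peripheral endosperm and seed coat, and none was called against chalazal seed coat, where the log2 differences were 1.08 ± 0.69 (SE) for SBT4.13, 1.73 ± 0.66 for CYP79A2 and 2.21 ± 0.83 for AGL79 (limma adjusted p = 0.293, 0.0735 and 0.0687).

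The number of transcripts that differed depended on the compartment set against chalazal endosperm. Of 14148 probe sets tested, 1248 (8.82%) were called higher and 1165 (8.23%) lower than in embryo. Against micropylar endosperm 490 (3.46%) were higher and 463 (3.27%) lower, and against peripheral endosperm 347 (2.45%) and 302 (2.13%). Against chalazal seed coat 1674 (11.8%) were higher and 1618 (11.4%) lower, and against seed coat 1693 (12%) and 1740 (12.3%). Peripheral endosperm thus gave the fewest calls, and both seed coat parts the most, in comparisons that share the chalazal endosperm arrays. Between the seed coat parts the order turned without chalazal endosperm replicate 1, with 2135 calls against seed coat and 2149 against chalazal seed coat. With each array scaled to its median, the seed coat comparison split into 2587 higher and 1290 lower calls (66.7% higher, against 49.3%), as this scaling moved the median difference of all tested probe sets there from 0.06 to 0.43 on the log2 scale.

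**Figure D1:**
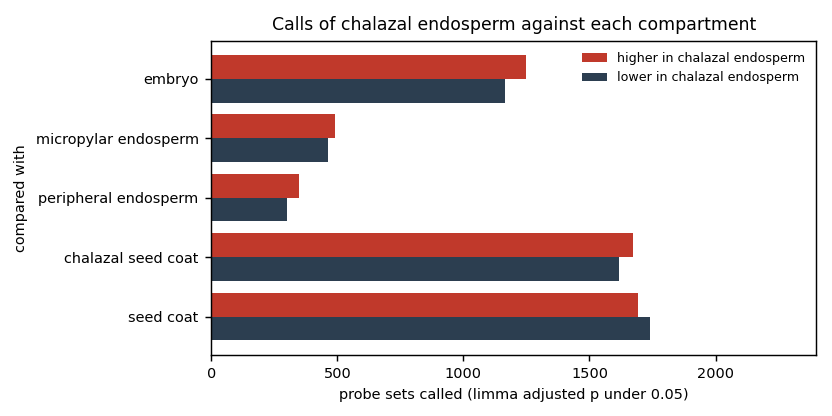
Number of probe sets called higher (red) or lower (dark) in chalazal endosperm (x axis) against each other compartment (y axis), of 14148 tested, at a limma adjusted p under 0.05. Calls ran from 347 higher and 302 lower against peripheral endosperm to 1693 higher and 1740 lower against seed coat.

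The same comparisons gave counts for the 457 members, of which 349 were tested and 108 were not. For those 108 no compartment had both arrays above the array median, which can also happen where replicates disagree. A member that was tested because of its chalazal endosperm signal had to differ from something, so these counts describe the list and support nothing. Members called higher numbered 236 against embryo, 200 against micropylar endosperm, 142 against peripheral endosperm, 131 against chalazal seed coat and 250 against seed coat, beside the shares of all tested probe sets just given. Of the 349, 30 were called higher in all 5 comparisons, 109 in 4, 74 in 3, 49 in 2, 53 in 1 and 34 in 0. Over all tested probe sets 31 (0.219%) were called higher in all 5, and the single one outside the list was AT5G45360, named here after its values were seen. Both chalazal endosperm arrays lay above all 10 other compartment arrays for 346 members, and for 845 (3.71%) of all probe sets.

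Levels of the members spanned a wide range. Their mean intensity in chalazal endosperm ran from 53.1 to 24354 with a median of 523, against a median of 154 over all probe sets, and 157 members (34.4%) exceeded 1000, as 16.1% of all probe sets did. The median fold over the highest other compartment was 2.59, 60 members were at least 4-fold and 8 at least 8-fold above it, and 82 folds are lower limits. The largest belonged to probe set 246429_at, which has no gene in the tables used: it read 1905 and 477 in chalazal endosperm and at most 85.9 on any other compartment array, a difference of at least 20.6-fold for the mean. By array, the log2 differences of 246429_at were at least 5.36 and 3.36. The smallest lay at the threshold itself. Just inside it, AT1G68730 (1124 and 1243), AT1G74510 (2622 and 6435) and AT4G16970 (555 and 291) differed from their next-highest compartment by 1.00 on the log2 scale. Just outside it, probe set 265929_s_at (3786 and 2293), AT4G19460 (501 and 416) and LPA66 (763 and 741) also differed by 1.00 after rounding.

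The strongest signals marked the compartment in different ways. AT2G24360 read 25050 and 23657, the highest mean of any member, but also 3442 to 11292 on the other 10 compartment arrays, so that it was a widely present transcript about 2.53-fold above its next-highest mean. It was called higher in all 5 comparisons, with log2 differences from 1.34 ± 0.30 (SE) against micropylar endosperm to 2.68 ± 0.30 against embryo. AT5G18310 (19992 and 17689) and probe set 260328_at (15148 and 9538) were likewise present in other endosperm parts, at 5425 to 12640 and 2698 to 4248. By contrast, the unnamed probe sets 245520_at and 250612_s_at were low outside the chalazal pole. The first read 26792 and 16710 in chalazal endosperm and 6497 and 9371 in chalazal seed coat, and no more than 109 on the other 8 compartment arrays. The other, whose probes match more than a single transcript, read 27241 and 13855 in chalazal endosperm, 3780 and 10804 in chalazal seed coat and no more than 160 elsewhere. In both, the chalazal endosperm arrays lay above all others, and the call against chalazal seed coat was missed (limma adjusted p = 0.170 and 0.173).

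Of the 30 members called higher in all 5 comparisons, 20 belong to 1 gene, and 3 of these have a symbol. TET11, a tetraspanin and thus a small membrane protein with several membrane spans, read 1656 and 387 in chalazal endosperm, 147 and 81.9 in chalazal seed coat and 23.7 to 102 on the other 8 compartment arrays. Both chalazal endosperm arrays were above all others although they differed from each other more than any other pair did, and the mean was 7.30-fold above chalazal seed coat, with log2 differences of 3.92 on replicate 1 and 1.82 on replicate 2. Of 9 tetraspanins tested, 1 was called higher and 1 lower than in embryo, 1 and 4 against micropylar endosperm, 1 and 3 against peripheral endosperm, 4 and 2 against chalazal seed coat and 1 and 3 against seed coat, where the shares of all tested probe sets are those given for each comparison. B160, at locus AT4G21430, read 6444 and 3824 against 348 to 1625 elsewhere, and both its arrays stood clear of all others by a 3.30-fold difference of means. AGL42 is described with the other MADS-domain genes.

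The other 17 are known here by locus only. AT5G57500 differed most, at 1124 and 1246 in chalazal endosperm, with up to 242 in micropylar and 117 in peripheral endosperm and values under the floor in embryo (10.2-fold above peripheral endosperm, log2 difference 3.34 ± 0.76 SE, limma adjusted p = 0.0210). Its 2 chalazal endosperm arrays were alike and far above the rest. AT4G04430 (367 and 675), AT3G30670 (554 and 171), AT3G62820 (339 and 464) and AT3G20180 (302 and 163) were under the floor on many arrays of the other compartments and did not exceed 91.7 on any. AT4G24430, at 5126 and 1684, was instead well present in both seed coat parts (437 to 898) and low in embryo and the other endosperm parts (at most 92.7). AT4G39860 (2618 and 2625) and AT1G02890 (10386 and 6386) were present throughout the seed, with the embryo replicates of AT1G02890 at 3054 and 4352. The group therefore held transcripts that were barely detected elsewhere as well as general ones with a higher level here.

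**Figure D2:**
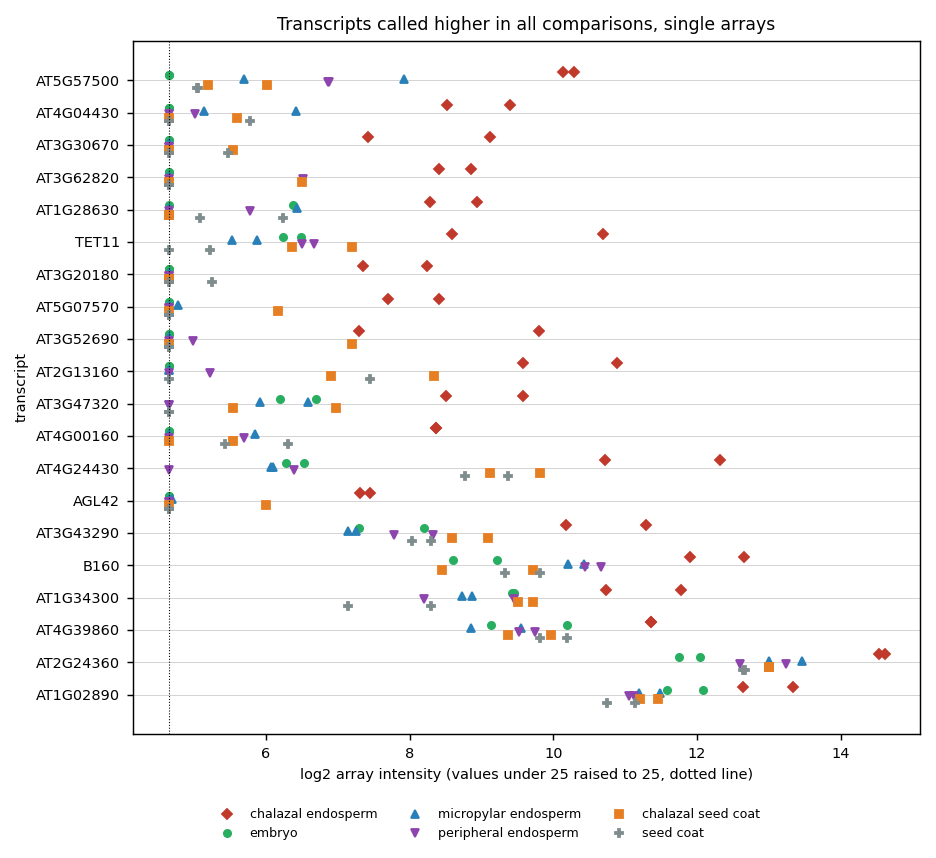
Log2 array intensity (x axis, values under 25 raised to 25) of the 20 genes called higher in all 5 comparisons (y axis, largest difference at the top), with a point for each of the 2 arrays of each of the 6 compartments. The red diamonds of chalazal endosperm lie to the right of all other points in every line, and the embryo and endosperm points of many upper lines sit at the floor.

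MADS-domain proteins bind DNA and control flower, fruit and seed development, and many of the family are active in the embryo sac and endosperm. AGL42, also called FOREVER YOUNG FLOWER and known for delaying the senescence of flower organs, read 174 and 158 in chalazal endosperm, 64.3 and 16.2 in chalazal seed coat and no more than 25.7 elsewhere. It was low in absolute terms, but its arrays stood apart from all others and it was called higher in all 5 comparisons (log2 difference of at least 2.05 to chalazal seed coat). AGL71 and AGL72, relatives of AGL42 that act with it in flowering and lie next to each other on chromosome 5, were high together. AGL71 read 686 and 228 against 115.5 and 93.0 in micropylar endosperm, its next-highest compartment. AGL72 read 709 and 460 against 198 and 121 there, and one chalazal seed coat array reached 318. Both chalazal endosperm arrays were above all others for each gene, and the log2 differences to micropylar endosperm were 1.93 ± 0.82 (SE) and 1.89 ± 0.86 without a call.

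AGL80, which is required for the central cell from which endosperm forms, read 1137 and 458 in chalazal endosperm, and one micropylar array at 692 lay between them. It was called higher than seed coat only. The 2 probe sets of AGL79 were both members, though their values in the other compartments did not have the same pattern. The brighter is described above, and the dimmer, which was not tested, read 145 and 232 in chalazal endosperm and 28.4 and 137 in seed coat.

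Glucosinolates are defence compounds of the cabbage family that are moved into the seed from the mother plant, and the transporters GTR1 and GTR2 carry them across membranes. GTR1 read 5271 and 3062 in chalazal endosperm, 1262 to 1819 in the other endosperm parts, 1058 and 1072 in chalazal seed coat, 646 and 828 in embryo and 61.4 and 486 in seed coat. The chalazal endosperm arrays exceeded all others, and GTR1 was called higher than embryo and seed coat. GTR2 had another order: 4923 and 4435 in chalazal seed coat, 2086 and 1337 in chalazal endosperm and no more than 396 elsewhere. It was called higher in chalazal endosperm than in embryo, micropylar endosperm and seed coat, by log2 differences of 5.55 ± 0.69 (SE), 3.70 ± 0.69 and 4.40 ± 0.69. Of 27 glucosinolate loci listed, 5 were tested. CYP79A2 and GTR1 were members, and of the other 2 tested the amino acid transaminase BCAT4 was called lower than chalazal seed coat, while the glucosyltransferase UGT74B1, at 315 and 143, had no call.

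UDP-dependent glycosyltransferases attach sugars to hormones and other small molecules, and 4 of 47 with a named probe set were members. UGT84B1, which glucosylates the auxin indole-3-acetic acid, was the strongest at 7951 and 4155, against 1261 and 1519 in peripheral endosperm, 827 and 924 in micropylar endosperm, 457 and 1759 in chalazal seed coat and under the floor in embryo. It was called higher than embryo, chalazal seed coat and seed coat, and the log2 difference to peripheral endosperm was 2.05 ± 0.90 (SE) without a call. UGT76C2, a cytokinin N-glucosyltransferase, read 393 and 406 against 206 and 119 in chalazal seed coat, and its arrays were alike and above all others. UGT74F1, which glucosylates salicylic acid, read 510 and 161, and the lower value was under that of an embryo array at 167. UGT80B1, a sterol glucosyltransferase also known as TRANSPARENT TESTA 15, read 525 and 451, and a seed coat array reached 737. Neither of the last pair had a call, and of 27 glycosyltransferases tested 3 were called higher and 1 lower than in embryo, 0 and 2 against each of the other endosperm parts, 6 and 2 against chalazal seed coat and 5 and 6 against seed coat. The shares of all tested probe sets to set beside these are those given above for each comparison.

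The members also held genes of cell division and chromatin, most of them named here after their values were seen. Of 11 cell division loci listed only AUR1 is on a named probe set, so no count over such genes is given. The Aurora kinase AUR1, which acts on the mitotic spindle and cell plate, read 963 and 846 in chalazal endosperm, 340 and 254 in peripheral endosperm and 13.4 to 449 on the other 8 compartment arrays. AUR3, another Aurora kinase, read 207 and 344, against 128 and 135 in micropylar endosperm. For both kinases the chalazal endosperm arrays were above all others and calls were made against both seed coat parts, with AUR3 also called higher than peripheral endosperm. Haspin, a histone H3 kinase of mitosis, read 99.6 and 150 and was not tested, and one seed coat array at 135 lay between. FU, also called FUSED, a kinase of cytokinesis, read 415 and 316 against at most 179 elsewhere on its brighter probe set. Its other probe set, which was no member and was not tested, read 80.4 and 300.1 in chalazal endosperm and 177 on a chalazal seed coat array, so that the groups overlapped. CHR17, a chromatin remodelling ATPase, was far stronger at 4579 and 3722 against 692 to 1976 elsewhere, and was called higher than embryo and both seed coat parts.

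**Figure D3:**
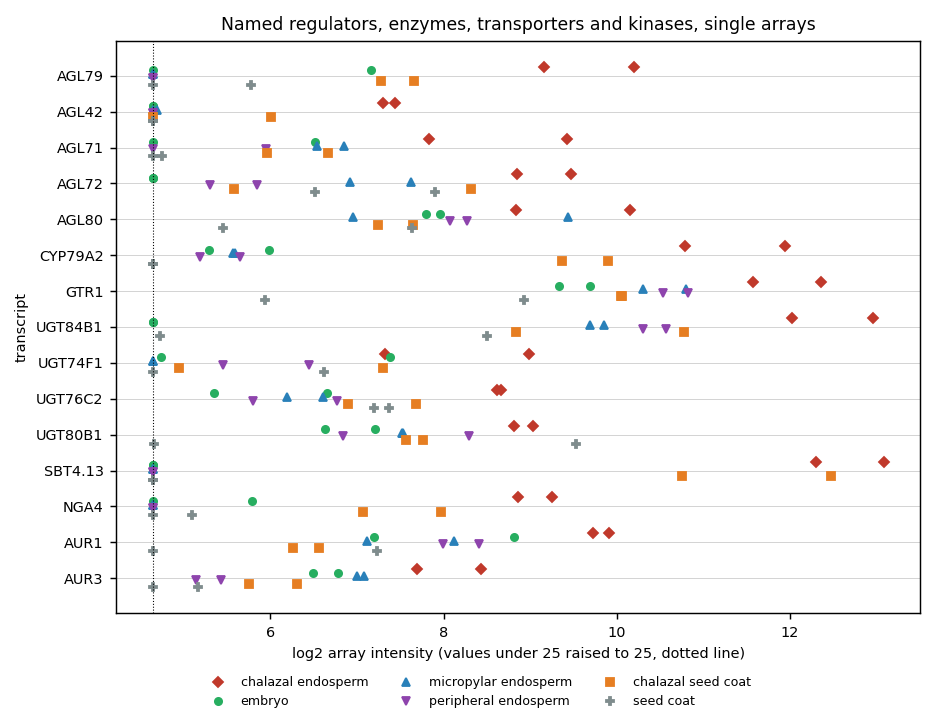
Log2 array intensity (x axis, values under 25 raised to 25) of MADS-domain genes, glucosinolate genes, glycosyltransferases, the subtilase SBT4.13, the regulator NGA4 and Aurora kinases (y axis), with a point for each array of the 6 compartments. Chalazal seed coat arrays come close to chalazal endosperm for CYP79A2, and the stronger of them overlaps it for SBT4.13. Single arrays of other compartments overlap for UGT74F1, UGT80B1 and AGL80.

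Further regulators, transporters and wall proteins completed the named members. NGA4, a B3-type transcription factor of the NGATHA group, read 610 and 463 against 135 and 250 in chalazal seed coat and at most 55.1 elsewhere, and was called higher than all but chalazal seed coat. AT1G27040, listed also as NPF4.5 of the nitrate and peptide transporter family, read 12415 and 7008, against 1772 and 5121 in chalazal seed coat and 1841 to 3133 in the other endosperm parts, and its arrays lay above all others. EXPB1, a beta-expansin that loosens cell walls, read 3186 and 2670 against 1000 and 1382 in micropylar endosperm. GH9C1, a glycosyl hydrolase of the endoglucanase family, read 3072 and 5078 against 1303 and 2941 in peripheral endosperm and was under the floor in embryo, with 93.5 and 577 in micropylar endosperm and at most 296 in the seed coat parts. IDH-III, an isocitrate dehydrogenase subunit, read 517 and 372 against 198 and 212 in peripheral endosperm and was likewise under the floor in embryo. AT5G59100, a neighbour of SBT4.13 with 2 genes between them, read 2003 and 721 against 485 and 675 in chalazal seed coat and at most 107 elsewhere. The glutaredoxin ROXY1 read 538 and 358, and CYTOSLEEPER, a locus listed as a pseudogene, read 2071 and 1045, each above all 10 other compartment arrays. The rest of the 34 genes with a symbol were TRM18, TRM19, PRA1.F1, CRR42, ATYKT62, LCR66, ATIM, IQD24 and TTL, with chalazal endosperm values from 67.8 to 807 and folds from 2.01 to 2.89, those of CRR42 and ATYKT62 being lower limits.

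The next-highest compartment was most often the chalazal seed coat, a maternal tissue, and not another part of the endosperm. It held that place for 172 members (37.6%), as it did for 21.3% of all probe sets. Peripheral endosperm followed with 95 (20.8%, against 13.2% of all), embryo with 73 (16.0% against 21.3%), seed coat with 62 (13.6% against 30.5%) and micropylar endosperm with 50 (10.9% against 13.2%), while 5 had no other compartment above the floor. The other endosperm parts together came to 145 members (31.7% against 26.4%). Of the 172, 107 (62.2%) were also at least 2-fold higher in chalazal seed coat than in seed coat, as were 40.2% of all probe sets with chalazal seed coat highest of the 5. Members next highest in peripheral endosperm had the higher median level in chalazal endosperm, 952, against 811 for those next highest in chalazal seed coat and 257 for those next highest in seed coat.

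**Figure D4:**
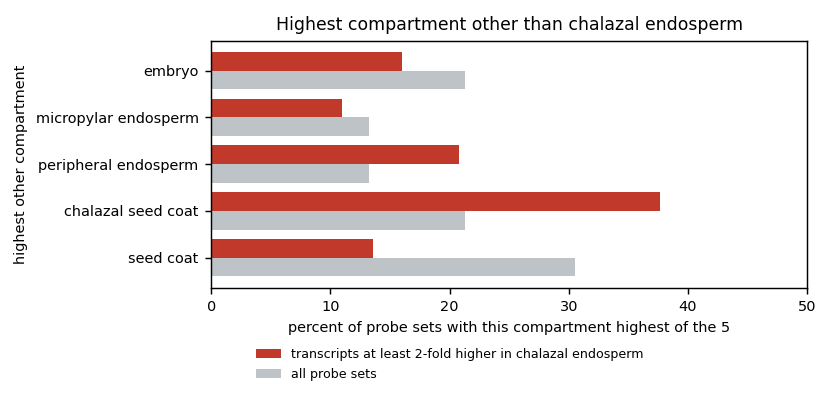
Share of probe sets (x axis, percent) for which each compartment (y axis) had the highest mean of the 5 other than chalazal endosperm, for the 457 members (red) and all 22746 probe sets (grey). Chalazal seed coat was highest for 37.6% of members and 21.3% of all probe sets, and seed coat for 13.6% and 30.5%.

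Chalazal endosperm and chalazal seed coat lie against each other, and some transcripts strong on the seed coat side are given with their endosperm values. They were named as extremes of the comparison of these tissues or from gene lists, so low endosperm values follow in part from that choice. They do not measure how much seed coat RNA the endosperm arrays held. SWEET10, a sugar transporter, read 34178 and 18253 in chalazal seed coat and 12.4 and 19.5 in chalazal endosperm, both under the floor. ATSPS4F, a sucrose phosphate synthase, read 14157 and 14012 against 55.9 and 93.3, and HAT2, a homeodomain factor, 11013 and 7240 against 72.1 and 5.88. All 3 were called lower in chalazal endosperm. The cytokinin response regulator RR22 read 23601 and 18562 in chalazal seed coat, 628 and 240 in chalazal endosperm and at most 133 in embryo and the other endosperm parts. In the other direction, 125 of the 172 members next highest in chalazal seed coat (72.7%) were brighter on the chalazal seed coat replicate 2 than on its replicate 1, as were 47.4% of all probe sets with that compartment highest of the 5. The part of carried-over tissue in these values was not tested.

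Transcripts high in chalazal endosperm were brighter on replicate 1 than on replicate 2 in 314 of 457 cases (68.7%, against 52.4% of all probe sets), with a median log2 difference of 0.50 between the arrays (0 over all probe sets). On replicate 1 alone 998 probe sets (4.39% of all) were at least 2-fold above the highest other mean, and on replicate 2 alone 518 (2.28%). The number on both was 234, which is 23.4% of the first list and 45.2% of the other, and all 234 are members by arithmetic. Of the remaining members, 158 passed on replicate 1 only and 65 on replicate 2 only. How many members were called in all 5 comparisons also depended on these arrays, and the number was lowest without replicate 1.

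**Figure D5:**
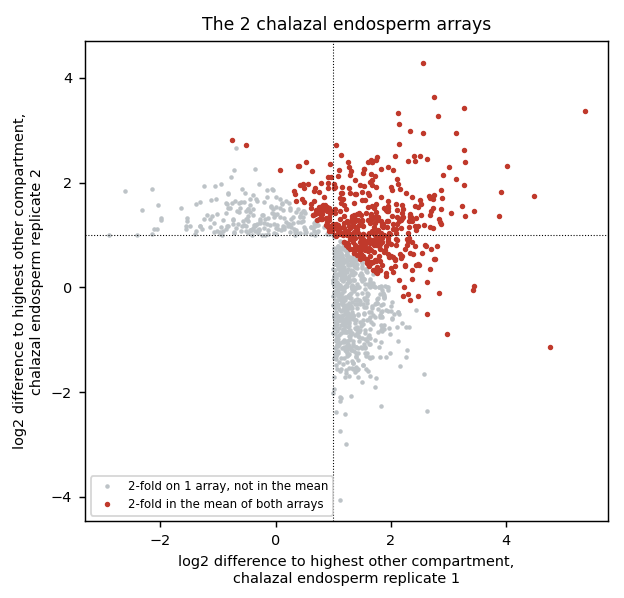
Log2 difference between chalazal endosperm and the highest other compartment mean on replicate 1 (x axis) and replicate 2 (y axis), for probe sets at least 2-fold higher on either array, with dotted lines at 2-fold. Red points are the 457 members, of which 234 lie beyond both lines, and more grey points lie beyond the line of replicate 1 than of replicate 2.

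Whole seeds did not enter the rule. The members' mean there was at least 2-fold below chalazal endosperm for 391 of 457 (85.6%, against 13.8% of all probe sets), and below the next-highest compartment for 348. The median of chalazal endosperm over whole seeds was 4.74-fold, against 0.992-fold over all probe sets; the chalazal endosperm values are those that chose the members. Both whole-seed arrays were over the floor for 295 members and neither for 57. SBT4.13 read 415 and 95.4 in whole seeds and TET11 300.2 and 176, whereas AT3G20180 was under the floor on both. In bulk samples of this kind, fewer cells of a type and less RNA per cell cannot be told apart.

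The members also held many loci that the RefSeq gene table lists as pseudogenes, a class that in Arabidopsis includes numerous remnants of transposable elements. Of 998 named pseudogene probe sets 39 (3.91%) were members, against 237 of 12482 for protein-coding genes (1.90%). Of the 39, 29 lay above all 10 other compartment arrays, much as 173 of the 237 protein-coding members and 346 of all 457 members did. Called higher in all 5 comparisons were AT4G04430 and AT3G47320, and also AT3G30670 and AT2G13160, whose probe sets are shared with other transcripts. The probe set listed for AT2G13160 read 1898 and 762 in chalazal endosperm, 120 and 324 in chalazal seed coat and 175 and 6.37 in seed coat. Of the 39, however, 27 were on probe sets whose probes match more than a single transcript, and such sets made up 191 of the 998. Among the other 807 the share was 12 members (1.49%), below that of protein-coding genes on such probe sets (1.89%). For shared-probe sets the gene that gave the signal is uncertain. Seed coat had more: 96 pseudogene probe sets (9.62%) were at least 2-fold above all other compartments there, and 6.70% of protein-coding ones. In the embryo these shares were 0.601% and 3.64%.

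Some members lie side by side in the RefSeq gene order, with no comparison made of how often members or other genes do so. AGL71 is next to AGL72, AGL79 to AT3G30280, NGA4 to AT4G01490, and AT3G60650 to AT3G60660. Haspin stood with the next pair of loci, AT1G09460 and AT1G09470. AGL79 and AT3G30280 were both called higher in the same 4 comparisons, and of the NGA4 pair AT4G01490, listed as a pseudogene, read 299 and 182.

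Beyond the members, the comparison with embryo had calls in the lists of vacuolar proteases and of storage genes. Of 9 tested genes listed for cell death and vacuolar proteolysis, 7 were higher and 1 lower than in embryo (8.82% and 8.23% of all tested probe sets), with a median log2 difference of 5.78 (0.01 over all tested probe sets). The carboxypeptidase-like scpl48 read 23744 and 23181 in chalazal endosperm and 369 and 143 in embryo, and DELTA-VPE, a vacuolar processing enzyme of developing seeds, 2153 and 877 against values under the floor. Neither differed by call from the other endosperm parts. All 7 tested storage protein and oil body genes were lower than in embryo (median log2 difference -2.88), and 4 of 7 late embryogenesis abundant genes were lower and 0 higher. The vicilin-like PAP85 read 10404 and 4861 against 79666 and 34428 in embryo. SWEET7, a sugar transporter that missed the 2-fold rule with 6911 and 3815 against 2955 and 2499 in peripheral endosperm, was called higher than embryo, chalazal seed coat and seed coat.

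Within the endosperm, several expansin and xyloglucan-modifying genes were lower in the chalazal part. Of 9 tested, 0 were higher and 4 lower than in micropylar endosperm (3.27% of all tested probe sets were lower), and the same counts held against peripheral endosperm (2.13%), with median log2 differences of -1.71 and -1.52 (0.03 and 0.00 over all tested probe sets). The expansin EXPA4 read 147 and 343 in chalazal endosperm, 13096 and 12267 in micropylar and 1899 and 1384 in peripheral endosperm. The xyloglucan enzyme XTH32 read 328 and 128 against 2400 to 3714 in the other endosperm parts, and the LOB-domain factor LBD16 147 and 36.8 against 3223 to 3688. No chalazal endosperm array of these 3 genes came near the other endosperm arrays. Not all wall genes shared this. Of 15 tested TBL genes 0 were higher and 1 lower than in micropylar endosperm, and none differed by call from peripheral endosperm (limma). Among the expansins themselves, the member EXPB1 was instead brightest in chalazal endosperm. Storage protein and oil body genes were also lower in 3 of 7 cases against each of the other endosperm parts, with 0 higher. SWEET11, a sucrose transporter, read 4648 and 6530 and was called higher than micropylar endosperm (862 and 2379) but not peripheral endosperm (5214 and 8040). Of 15 measured genes listed for nutrient transport 0 were members. Of the 8 tested, 1 was higher and 0 lower than in micropylar endosperm, and none differed by call from peripheral endosperm. Against embryo 3 were higher and 0 lower, and against each seed coat part 3 were higher and 3 lower. Shares of all tested probe sets are those given above. SWEET2, SWEET3, SWEET4, SWEET10, SWEET14 and SWEET17 were under the floor on both chalazal endosperm arrays.

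Against the seed coat parts the storage genes had the opposite sign. All 7 storage protein and oil body genes were higher than in chalazal seed coat (median log2 difference 4.02) and 2 were higher than in seed coat. Of all tested probe sets 11.8% and 12% were higher in these comparisons. Of 6 tested endosperm markers 5 were higher and 1, BZIP53, was lower than in chalazal seed coat, and 3 were higher and 0 lower than in seed coat. Against each of the other endosperm parts 0 were higher and 2 lower, and against embryo 2 were higher and 0 lower. The shares of all tested probe sets to set beside these are those given above for each comparison. Of 6 tested seed coat markers, 4 were lower than in chalazal seed coat and 3 lower than in seed coat, with 0 higher in either. Of all tested probe sets 11.4% and 12.3% were lower in these comparisons. ARA12, a subtilase of seed mucilage release, read 679 and 1440 against 5423 and 10122 in chalazal seed coat and 19636 and 11495 in seed coat. GILT, listed among the lowest against seed coat, was under the floor in chalazal endosperm and read 7412 and 5354 in seed coat and 158 and 8537 in chalazal seed coat.

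On the other side were transcripts low in chalazal endosperm. Their mean was at least 2-fold below the lowest other compartment for 288 probe sets (1.27%), of which 174 lay below all 10 other compartment arrays, as 343 (1.51%) of all did, and 54 were under the floor on both arrays. Of 14148 tested, 36 (0.254%) were called lower in all 5 comparisons, and 35 of these were among the 288. Their number against the 457 high ones depended on the floor, and with no floor the low ones were more, 769 against 592. AT1G68410 was the lowest relative to the rest, at 40.4 and 80.5 against 444 to 1341 elsewhere (log2 difference to peripheral endosperm -3.17 ± 0.53 SE, limma adjusted p = 0.00337). FMO, at locus AT1G12200, read 65.0 and 113 against 351 to 1698, and the beta-glucosidase gene BGLU25 146 and 192 against 522 to 1780. Each of these was called lower in all 5 comparisons, and their chalazal endosperm arrays were under every other array. FER, the receptor kinase FERONIA, read 909 and 656 against 1323 to 3625 and was called lower in 4 comparisons.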

How the data were processed

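Intensities of 14 ATH1 arrays were used as deposited. Per the submitters' processing notes, the authors made these intensities with GCOS; its version and signal algorithm, and the genome build, are not given in the sources used. After trimming 2% at each end, every array had a mean of 500.04 to 500.06. Control probe sets (64) were left out. Values under 25 were raised to 25 and log2 was taken. Probe sets above the array median on both arrays of at least 1 compartment (14148) were tested in limma 3.58.1 (R 4.3.3), with 1 mean per compartment over 12 arrays (6 residual degrees of freedom), an intensity trend in the variance, and Benjamini-Hochberg adjustment within a comparison, called under 0.05. On simulated arrays for the embryo comparison, the fit called 2 of 50 changes of 1 on the log2 scale and 14 of 50 of 2. It called 34 of 50 changes of 3 and 36 of 50 of 4, with 2 false calls. A missing call thus does not show that a difference was absent. The simulation changed only these sets of 50 probe sets, far fewer than were called against embryo in the data. The shares it recovered therefore need not hold for the data. Genes were named through the platform table and RefSeq TAIR10.1. Named by rule were the markers, genes called in all 5 comparisons, extremes of each comparison and next-highest compartment, the lowest and brightest transcripts, those at the threshold, and tested members of 17 gene lists and 20 symbol families. Other members with a symbol, genome neighbours, probe set 246429_at, AT5G45360 and FER were named after their values were seen. Members and lists were chosen with earlier results of these data known. The labels do not say whether replicate numbers pair the samples, and the main fit did not treat them as pairs. The 15 correlations of deviations between groups lay between -0.06 and 0.10, which cannot decide whether samples were paired. Alternatives covered the floor, filter, scaling, variance trend, whole seeds, a replicate block and each array left out. The number of arrays limits the precision. Some results are not reported here.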

Additional observations from a re-analysis of the deposited data

How the results depend on the processing

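The number of members was 390 with a floor of 50, 592 with no floor, 463 after quantile normalization, 454 after scaling to array medians and 464 with linear means, of which 390, 455, 420, 424 and 394 were among the 457. Leaving out each array in turn gave 385 to 998, and 299 to 434 of the 457 were kept; the 998 came without chalazal endosperm replicate 2. In all, 134 members were kept whichever array was left out and 129 under all 20 alternatives. The 30 members called in all 5 comparisons became 77 with a floor of 50, 11 with no floor, 19 with no filter and 1 to 37 with an array left out. With an array left out, this number was lowest without chalazal endosperm replicate 1. It was also below 30 without any single embryo, micropylar or peripheral endosperm array. Calls in both directions, 2413 against embryo, 953 against micropylar endosperm, 649 against peripheral endosperm, 3292 against chalazal seed coat and 3433 against seed coat, ranged with an array left out over 1314 to 2688, 278 to 1105, 148 to 769, 1915 to 3571 and 2135 to 3555. The lowest came without chalazal endosperm replicate 1 for embryo and seed coat, without micropylar replicate 1, without peripheral replicate 1 and without chalazal seed coat replicate 1. With chalazal endosperm replicate 1 left out, the other 3 were 388, 219 and 2149. Without chalazal endosperm replicate 2 the micropylar comparison had 556, without either embryo array the embryo comparison had 1344 and 1445, without micropylar replicate 2 its own had 388, and without peripheral replicate 2 its own had 204. With a lone array its group is assumed to vary like the others. With no filter the micropylar and peripheral comparisons had 473 and 288 calls. The 288 low transcripts became 156 with a floor of 50, 769 with no floor and 264 to 678 with an array left out; they were 437 and 678 without chalazal endosperm replicate 1 and 2. A replicate block gave 36 in place of 30 and changed no count by more than 1.5 times. The cause of these changes was not tested. Of named genes, only the 3 markers and the 20 genes called in all comparisons were followed through the alternatives. None of their 460 values was reversed: 280 stayed on their side of the threshold, 4 gained a call and 176 lost it. The 3 markers had no call against chalazal seed coat to lose, so every loss was among the 20 genes. Each of these 20 kept its call in all 5 comparisons under 5 to 16 of the 20 alternatives.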
